A study of Mus musculus with 16 samples.

Results

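The genes described here are 8 genes of the basement membrane, Lama1, Lamb1, Lamc1, Col4a1, Col4a2, Nid1, Hspg2 and Sparc, which are classical markers of parietal endoderm. They were chosen by name, with all their probes, on 16 mouse expression arrays. They have 12 probes of 41174 on the array, and all 8 were among the 18282 genes tested. Lamb1 carries the older name Lamb1-1 in the files. Hspg2 was recognised by its description as perlecan and by its place on chromosome 4, and a further probe described as perlecan that the files place on chromosome 13 was not counted.

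The RNA came from E14 mouse embryonic stem cells that stably expressed a short hairpin RNA from a lentiviral vector, in a medium with serum and leukocyte inhibitory factor, as the labels call it. One line carried a control hairpin (sh-Control), and the other a hairpin to Sirt1 (sh-SIRT1), whose protein removes acetyl groups with NAD as cofactor. Both lines were kept for 2 days in vehicle, which was ethanol, or in retinoic acid (RA) at 20 nM. Which isomer was used is not stated. There were 3 arrays of sh-Control vehicle, 3 of sh-SIRT1 vehicle, 4 of sh-Control RA and 6 of sh-SIRT1 RA. The design names 3 pairs of cultures, each in duplicate, without saying which RA arrays belong to 1 culture, so p-values measure the spread between arrays, which may be partly technical.

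A basement membrane is a thin sheet of secreted matrix under epithelial cells. Laminin, a trimer of an alpha, a beta and a gamma chain, forms one network and type IV collagen forms another. Nidogen and the heparan sulfate proteoglycan perlecan link them, and Sparc is a secreted protein that binds collagen. Parietal endoderm, an extraembryonic cell layer of the early rodent embryo, secretes these proteins in bulk to build Reichert's membrane. RA is a standard agent for turning embryonal carcinoma and stem cells towards such endoderm.

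Of the 12 probes 4 are shown because the files place each over a stretch of genome much longer than the probe, so that it reads joined exons of the spliced messenger RNA. They lie in build mm7 at chr17:66089045-66090007 (Lama1), chr12:29168364-29169711 (Lamb1), chr8:11167857-11169691 on the minus strand (Col4a1) and chr11:55352704-55355361 on the minus strand (Sparc). Each holds 60 bases, against spans of 963, 1348, 1835 and 2658 bases of genome.
Lama1: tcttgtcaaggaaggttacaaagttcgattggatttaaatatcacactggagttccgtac
Lamb1: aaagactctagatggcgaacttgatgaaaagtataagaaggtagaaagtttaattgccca
Col4a1: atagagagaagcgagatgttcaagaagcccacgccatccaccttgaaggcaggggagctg
Sparc: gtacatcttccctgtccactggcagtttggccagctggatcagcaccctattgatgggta

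Col4a1 and Col4a2 lie head to head on chromosome 8 and are read in opposite directions. In RefSeq (build GRCm38.p6) their first bases, 11312826 for Col4a1 and 11312805 for Col4a2, are 21 bases apart. By these positions the first base of each gene lies inside the other gene, so the starts overlap and leave no gap. The window from 250 bases before to 50 after the start of Col4a2, chr8:11312555-11312854 on the plus strand, is shown because both collagen chains moved together. Capitals mark the 78 bases that it shares with the Col4a1 window, chr8:11312777-11313076 on the minus strand.
Col4a2 window: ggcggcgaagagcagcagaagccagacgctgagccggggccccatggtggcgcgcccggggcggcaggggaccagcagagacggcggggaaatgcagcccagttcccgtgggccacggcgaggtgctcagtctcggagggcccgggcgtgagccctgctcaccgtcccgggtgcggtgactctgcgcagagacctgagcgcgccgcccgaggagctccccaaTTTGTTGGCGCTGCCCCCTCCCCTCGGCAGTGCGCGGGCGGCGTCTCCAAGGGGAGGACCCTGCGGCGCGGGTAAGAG

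Such windows were found for 6 of the 8 genes, and 4 short motifs were counted on both strands of each. The GC box GGGCGG was in 5 of the 6 windows (all but that of Sparc), against 35.7% of all 32851 windows, with 1 match inside the bases shared by the collagen genes. The CCAAT box CCAAT was in 4 of 6, against 37.4%. The nuclear receptor half-site AGGTCA and the GATA motif AGATAA were in none of the 6, against 16.3% and 11.2% of all windows. Of the 6 windows those of the collagen genes were the richest in G and C, at 74.0% for Col4a1 and 73.7% for Col4a2, and the Sparc window the poorest at 55.3%.

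Levels are given as log2 of the processed intensity above the 75th percentile of the array, so they compare arrays for a gene and not genes with each other. All 12 probes were well above background on all 16 arrays and none was saturated. Sirt1 was between 3.52 and 3.85 in sh-Control vehicle, 1.82 and 1.88 in sh-SIRT1 vehicle, 3.28 and 3.47 in sh-Control RA and 0.92 and 1.59 in sh-SIRT1 RA. The 4 sh-Control RA arrays were not alike. The Y-linked helicase gene Ddx3y was at 0.22 on array 1 but at -6.92, -8.01 and -8.12 on arrays 2, 3 and 4, where it was not well above background, against 0.32 or more on every array of the other 3 groups. The male-specific signal thus separates array 1 from the other sh-Control RA arrays. By the mean of 3 Y-linked genes, array 1 (-0.96) lay within the range of sh-Control vehicle (-1.29 to -0.11). Arrays 2, 3 and 4 (-5.85, -6.16 and -6.1) lay far below it. In contrasts that use arrays 2, 3 and 4, an effect of RA or hairpin and a difference in the cells cannot be told apart. Results of the 8 genes that use this group are given with all 4 arrays, with array 1 alone and without array 1. A fit with array 1 alone rests on the spread of the remaining groups, and the lone array is assumed to vary like them.

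**Figure D1:**
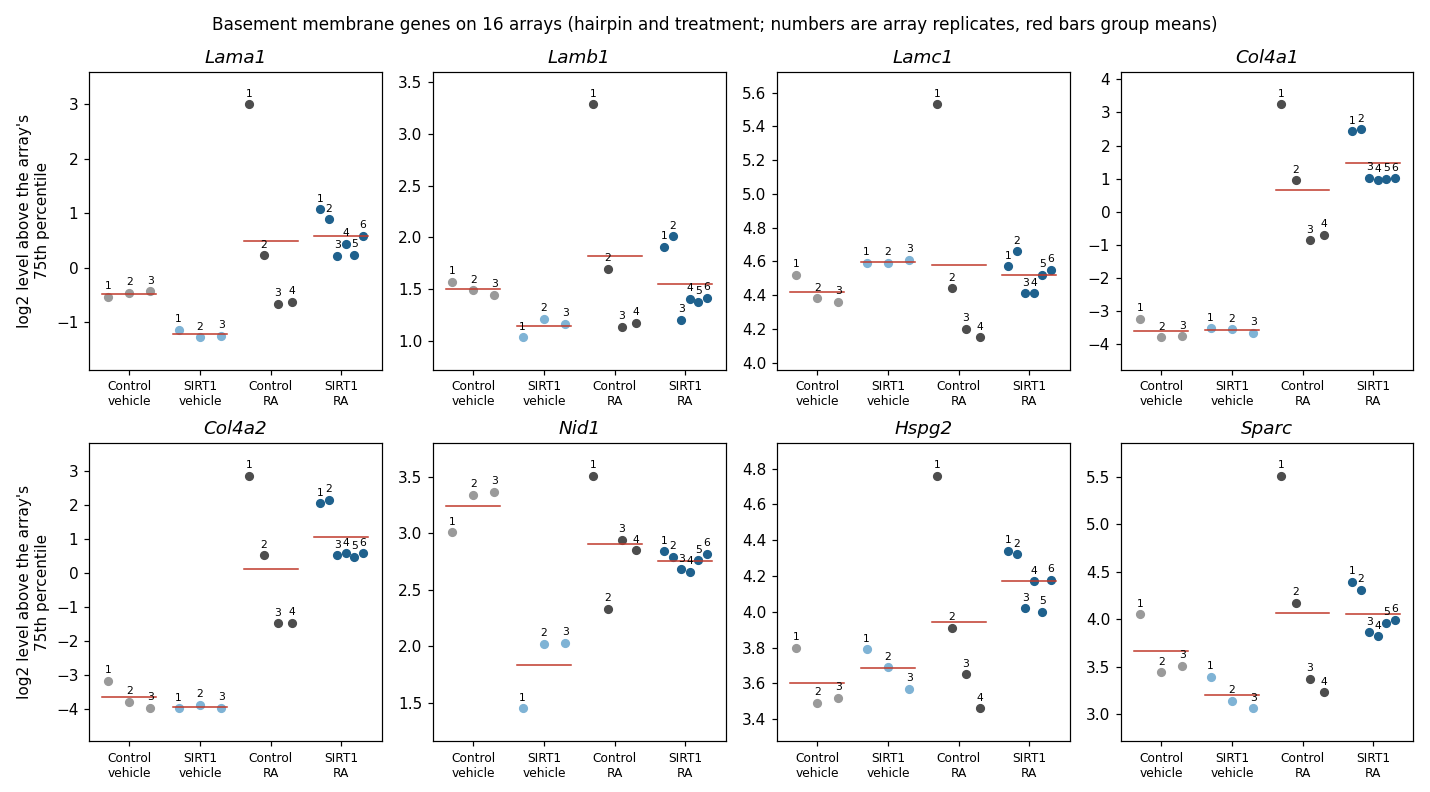
Level of each of the 8 genes (brightest probe, log2 above the 75th percentile of the array; the vertical scale differs between panels) on the 16 arrays by hairpin and treatment, with array replicates numbered and group means as red bars. For all 8 genes sh-Control RA array 1 is the highest of its group, and Col4a1 and Col4a2 lie higher on every RA array than on any vehicle array.

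RA raised both type IV collagen chains in both lines, and no other gene of the 8 rose in both with all arrays. In sh-Control cells 2 of the 8 were called, Col4a1 and Col4a2, both higher, where 46.7% of all genes were called (19.7% higher and 27.0% lower). In sh-SIRT1 cells 4 were called, Lama1, Col4a1, Col4a2 and Nid1, all higher, where 58.2% of all genes were called (23.2% higher and 35.0% lower). The 8 genes had a median difference of 0.37 in the sh-Control line, against -0.14 over all genes. In the sh-SIRT1 line the median was 0.89, against -0.13. The 2 RA contrasts use different arrays. In these bulk cultures, fewer cells of a type and less RNA per cell cannot be told apart.

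Counts of higher genes were thus 2 of 8 and 4 of 8 beside shares of 19.7% and 23.2% over all genes. In sh-Control cells the groups did not overlap for 2 of the 8 genes, both higher, against 47.6% of all genes (19.3% higher and 28.3% lower). In sh-SIRT1 cells they did not overlap for 6, all higher, against 57.6% of all genes (22.7% higher and 34.9% lower). Lamb1 and Lamc1 were the 2 genes whose sh-SIRT1 groups overlapped.

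Lama1 encodes the alpha chain of laminin-111, the first laminin of the embryo. Its level was -0.53, -0.46 and -0.43 in sh-Control vehicle and -1.14, -1.27 and -1.25 in sh-SIRT1 vehicle. Under RA it was 2.99, 0.23, -0.66 and -0.62 on the 4 sh-Control arrays, and 1.07, 0.89, 0.22, 0.44, 0.24 and 0.58 on the 6 sh-SIRT1 arrays. Sh-Control arrays 3 and 4 lay below all sh-Control vehicle arrays and arrays 1 and 2 above them, while every sh-SIRT1 RA array lay above every vehicle array. RA raised Lama1 by 1.79 ± 0.58 (SE; limma adjusted p = 0.0166, 3.46-fold) in sh-SIRT1 cells. In the sh-Control line the value was 0.95 ± 0.63 and missed the threshold (adjusted p = 0.226). It was 3.46 ± 0.28 (adjusted p = 1.46e-05) with array 1 alone and 0.12 ± 0.25 (adjusted p = 0.709) without it. The second Lama1 probe, chr17:66077770-66077829, was at 0.73 ± 0.41 in sh-SIRT1 cells and did not pass (adjusted p = 0.145), so the call rests on the brighter probe. On the second probe sh-Control RA array 4 carried an outlier mark and was left out of the fit, and array 1, at -0.94, was again the highest.

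Lamb1 and Lamc1 encode the beta and gamma chains that many laminins share. Neither was called for RA in either line with all arrays. Lamb1 was at 1.57, 1.49 and 1.45 in sh-Control vehicle, 1.04, 1.22 and 1.17 in sh-SIRT1 vehicle and 3.28, 1.70, 1.14 and 1.18 in sh-Control RA. In sh-SIRT1 RA its lowest, median and highest levels were 1.21, 1.41 and 2.01. Lamc1 was between 4.36 and 4.61 on all 6 vehicle arrays, at 5.53, 4.44, 4.20 and 4.15 in sh-Control RA, and between 4.41 and 4.66 in sh-SIRT1 RA. Array 1 of sh-Control RA was thus the highest of all 16 arrays for both genes. The RA difference of Lamb1 was 0.32 ± 0.39 (adjusted p = 0.516) in sh-Control and 0.42 ± 0.36 (adjusted p = 0.339) in sh-SIRT1 cells. For Lamc1 the values were 0.16 ± 0.24 (adjusted p = 0.602) and -0.08 ± 0.22 (adjusted p = 0.781). With array 1 alone, both rose in sh-Control cells, Lamb1 by 1.78 ± 0.27 (adjusted p = 5.75e-04) and Lamc1 by 1.11 ± 0.12 (adjusted p = 7.95e-05). Without array 1 both were at -0.16 there and did not pass.

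Col4a1 and Col4a2 encode the alpha-1 and alpha-2 chains of type IV collagen, which assemble with each other into the common trimer. Col4a1 was at -3.24, -3.79 and -3.76 in sh-Control vehicle and -3.52, -3.55 and -3.65 in sh-SIRT1 vehicle. Under RA it was at 3.24, 0.95, -0.86 and -0.70 in sh-Control cells and at 2.43, 2.49, 1.02, 0.96, 1.00 and 1.01 in sh-SIRT1 cells. Every RA array lay above every vehicle array, by at least the gap between -3.24 and -0.86. Within both lines the RA arrays were of unequal height, with arrays 1 and 2 above the others. RA raised Col4a1 by 4.25 ± 0.76 (adjusted p = 4.77e-04, 19-fold) in sh-Control and by 5.06 ± 0.70 (adjusted p = 3.24e-05, 33.3-fold) in sh-SIRT1 cells. In sh-Control cells the rise was 6.83 ± 0.61 with array 1 alone and 3.39 ± 0.51 (adjusted p = 1.74e-04) without it.

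Col4a2 moved like Col4a1. It was at -3.16, -3.78 and -3.96 in sh-Control vehicle, -3.97, -3.86 and -3.95 in sh-SIRT1 vehicle and 2.85, 0.52, -1.48 and -1.46 in sh-Control RA. In sh-SIRT1 RA it was at 2.04, 2.15, 0.52, 0.58, 0.48 and 0.58. As for Col4a1, the heights ran with array 1 of sh-Control RA on top and its arrays 3 and 4 lowest among RA arrays. RA raised it by 3.74 ± 0.82 (adjusted p = 0.00211, 13.3-fold) in sh-Control and by 4.99 ± 0.76 (adjusted p = 7.21e-05, 31.7-fold) in sh-SIRT1 cells. The value in sh-Control cells was 6.48 ± 0.66 with array 1 alone and 2.82 ± 0.57 (adjusted p = 0.0014) without it. Relative to their own sh-Control vehicle means, Col4a1 exceeded Col4a2 by 0.30 to 0.73 on the 10 RA arrays, so the 2 chains kept within this margin while each spanned more than 4 log2 units between sh-Control RA arrays.

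Both collagen genes have a second probe, and the 2 probes of each gave the same calls. In the fit over probes, where the share of all probes called for RA was 45.5% in sh-Control cells and 58.1% in the other line, the second Col4a1 probe, which crosses exons, rose by 3.26 ± 0.74 (adjusted p = 0.00276) and 4.32 ± 0.69 (adjusted p = 1.04e-04). The second Col4a2 probe, chr8:11416191-11416250, rose by 3.26 ± 0.80 (adjusted p = 0.00455) and 4.68 ± 0.74 (adjusted p = 1.01e-04). Over all 12 probes 4 were called in the sh-Control line and 7 in the sh-SIRT1 line, all higher. Between the hairpins only the Nid1 probe was called, in vehicle (8.42% of all probes) and for the difference of RA effects (4.41%), and none under RA (20.7%). Probes of a gene share its RNA and are not replicates.

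**Figure D2:**
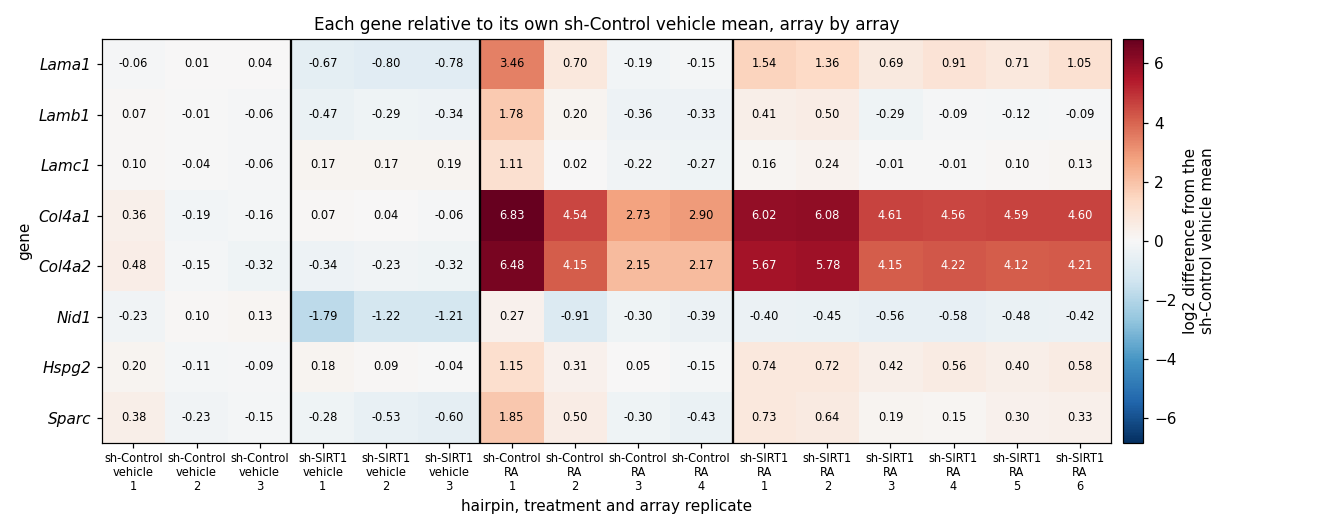
Log2 difference of each gene (rows) on each array (columns) from its own mean in sh-Control vehicle, with red above and blue below that mean. The collagen genes reach 6.83 and 6.48 on sh-Control RA array 1 and 2.15 to 2.90 on its arrays 3 and 4, while Nid1 is lowest in sh-SIRT1 vehicle.

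Nid1 encodes nidogen-1, which bridges laminin and type IV collagen, and it followed a pattern of its own. It was at 3.01, 3.34 and 3.37 in sh-Control vehicle but at 1.45, 2.02 and 2.03 in sh-SIRT1 vehicle. Under RA it was at 3.51, 2.33, 2.94 and 2.85 in sh-Control cells and between 2.66 and 2.84 on all 6 sh-SIRT1 arrays. The 3 sh-SIRT1 vehicle arrays were thus the lowest of all 16. RA raised Nid1 by 0.92 ± 0.20 (adjusted p = 0.00116, 1.90-fold) in sh-SIRT1 cells. In sh-Control cells it was at -0.33 ± 0.21 (adjusted p = 0.216) with all arrays and 0.27 ± 0.22 (adjusted p = 0.352) with array 1 alone. Without array 1 it fell by 0.53 ± 0.18 there (adjusted p = 0.0247).

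Hspg2, the core protein gene of perlecan, and Sparc were not called for RA with all arrays. Hspg2 was at 3.80, 3.49 and 3.52 in sh-Control vehicle, 3.79, 3.69 and 3.57 in sh-SIRT1 vehicle and 4.76, 3.91, 3.65 and 3.46 in sh-Control RA. Its lowest, median and highest sh-SIRT1 RA levels were 4.00, 4.17 and 4.34, all above the vehicle arrays. The RA difference of Hspg2 was 0.49 ± 0.21 in sh-SIRT1 cells (adjusted p = 0.0585) and 0.34 ± 0.23 in sh-Control cells (adjusted p = 0.233). Sparc was at 4.05, 3.44 and 3.51 in sh-Control vehicle, 3.39, 3.14 and 3.06 in sh-SIRT1 vehicle and 5.51, 4.17, 3.37 and 3.23 in sh-Control RA. In sh-SIRT1 RA it was between 3.82 and 4.39, above every sh-SIRT1 vehicle array. Its RA difference was 0.86 ± 0.37 in sh-SIRT1 cells (adjusted p = 0.0614) and 0.40 ± 0.40 in sh-Control cells (adjusted p = 0.426). The second Sparc probe, which crosses exons, passed in sh-SIRT1 cells at 0.84 ± 0.33 (adjusted p = 0.0401), so Sparc lay at the edge of the threshold. With array 1 alone, Hspg2 rose by 1.15 ± 0.17 and Sparc by 1.85 ± 0.27 in sh-Control cells, and without it they were at 0.07 ± 0.13 and -0.08 ± 0.24.

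**Figure D3:**
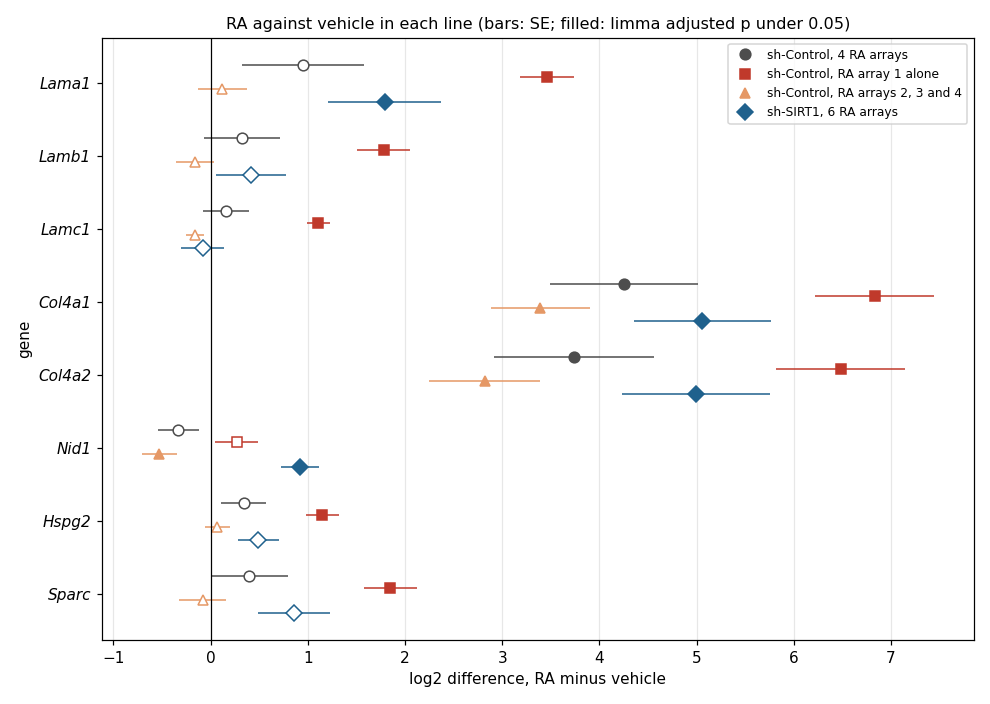
Log2 difference between RA and vehicle (horizontal axis) for each gene, in sh-Control cells with all 4 RA arrays, with RA array 1 alone and with RA arrays 2, 3 and 4, and in sh-SIRT1 cells with 6 RA arrays. Bars are SE and filled points passed an adjusted p of 0.05, which Col4a1 and Col4a2 did in all 4 versions, while Lama1, Lamb1, Lamc1, Hspg2 and Sparc did so in sh-Control cells with array 1 alone.

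The count for RA in sh-Control cells therefore turned on 1 array. With array 1 alone 7 of the 8 genes were called higher, all but Nid1, where 38.6% of all genes were called. The choice also moved the spread that sh-SIRT1 cells are tested with: there 7 genes, all but Lamc1, were called higher with array 1 alone (61.4% of all genes) and 6, all but Lamb1 and Lamc1, without it (60.8%). Without array 1 Col4a1 and Col4a2 were called higher and Nid1 lower, where 47.4% of all genes were called. Taken singly, array 1 had all 8 genes above the highest sh-Control vehicle array, where 32.7% of all genes were so placed. Array 2 had 6 above and Nid1 below, where 30.7% of all genes were above and 49.9% below. Arrays 3 and 4 had the 2 collagen genes above and 5 and 6 genes below, where 33.7% and 33.6% of all genes were above and 45.8% and 45.1% below. Each of the 6 sh-SIRT1 RA arrays had between 6 and 8 genes above its vehicle arrays, and Lamc1 was below them on 5 of the 6, where 32.3 to 37.5% of all genes were above and 46.9 to 51.4% below.

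In vehicle, the comparison of hairpins sets the 2 lines side by side after 2 days without RA. Each hairpin was in 1 line, so an effect of the hairpin and another difference between the lines cannot be told apart. Nid1 alone of the 8 was called, and it fell by 1.41 ± 0.23 (adjusted p = 0.00238, 2.65-fold), where 8.62% of all genes were called (4.39% higher and 4.22% lower). All 3 sh-SIRT1 arrays lay below all 3 sh-Control arrays, and within slides 1 and 3 the difference was -0.99 and -1.31. By its brighter probe Lama1 was lower on all sh-SIRT1 arrays too, at -0.75 ± 0.67 (adjusted p = 0.552). The second Lama1 probe was at -0.18 ± 0.47 (limma over probes, adjusted p = 0.863). Its groups overlapped, with -3.48 on sh-SIRT1 array 2 above -3.51 and -3.53 on sh-Control arrays 2 and 3. The SE of Lama1 is shared with the RA groups, where its spread was wide (SD 1.72 in sh-Control RA against 0.05 and 0.07 in the vehicle groups). With the replicate number as a block, in a fit of the vehicle arrays only, Lama1 was lower by the same -0.75 with an SE of 0.08 (adjusted p = 0.0196), so that 2 of the 8 genes were called, where 18.6% of all genes were called in that fit. It was also called with array 1 of sh-Control RA alone (adjusted p = 0.0326; 12.9% of all genes) but not without array 1 (adjusted p = 0.0653; 12.2%). Lamb1 (-0.36 ± 0.42) and Sparc (-0.47 ± 0.43) were lower and Lamc1 (0.18 ± 0.26) higher on all sh-SIRT1 arrays without passing. The second Sparc probe, at -0.32 ± 0.38, overlapped between the hairpins, with 3.03 on sh-SIRT1 array 1 above 2.98 on sh-Control array 3. By the brightest probe, 5 of the 8 genes had groups that did not overlap, 1 higher and 4 lower. Over all genes this share was 36.0% (18.4% higher and 17.6% lower). Col4a1 (0.02 ± 0.81), Col4a2 (-0.30 ± 0.88) and Hspg2 (0.08 ± 0.24) overlapped between the hairpins.

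The collagen genes lie on chromosome 8, whose 963 tested genes stood higher in sh-SIRT1 cells as a whole. The median difference between hairpins was 0.36 on this chromosome in vehicle and 0.26 under RA. For the other 6 genes the median of their own chromosome was between -0.08 and 0.02. Measured against chromosome 8, Col4a1 and Col4a2 were at -0.34 and -0.66 in vehicle and at 0.57 and 0.69 under RA. The part of the chromosome's shift in these values was not tested.

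Under RA the comparison bears on the subject of the series, the response to RA when SIRT1 is deficient. With all arrays 0 of the 8 genes were called between the hairpins (limma; 0 also at an unadjusted p of 0.05), where 20.2% of all genes were called (8.70% higher and 11.5% lower). The groups overlapped for all 8, where those of 15.4% of all genes were apart (6.59% higher and 8.77% lower). The values ran from -0.27 ± 0.33 for Lamb1 to 0.95 ± 0.69 for Col4a2 (adjusted p = 0.611 and 0.369), with Col4a1 at 0.83 ± 0.64 (adjusted p = 0.401). The median of the 8 was 0.04, against -0.03 over all genes. The direction of the calls depended on which sh-Control RA arrays were used. Against array 1 alone 6 of the 8 were lower in sh-SIRT1 cells, where 11.1% of all genes were called. These were Lama1 (-2.42 ± 0.27), Lamb1 (-1.73 ± 0.25), Sparc (-1.46 ± 0.26), Lamc1 (-1.01 ± 0.11), Nid1 (-0.75 ± 0.20) and Hspg2 (-0.58 ± 0.16), and the collagen genes were at -1.75 ± 0.57 and -1.79 ± 0.62 without passing (adjusted p = 0.0746 and 0.0889). Against arrays 2, 3 and 4, 5 of the 8 were higher, where 23.3% of all genes were called. These were Col4a2 (1.87 ± 0.49), Col4a1 (1.69 ± 0.44), Lama1 (0.92 ± 0.21), Hspg2 (0.50 ± 0.12) and Lamc1 (0.26 ± 0.08).

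The same turn was seen between arrays of the same number and between arrays of the same slide. In the first pair of RA arrays sh-SIRT1 was lower for all 8 genes, with both collagen genes at -0.81. In the second pair it was higher for all 8, with Col4a1 at 1.54 and Col4a2 at 1.63. In pairs 3 and 4 it was higher for 7, all but Nid1, with Col4a1 at 1.88 and 1.66. Within slide 4, which holds sh-Control RA array 1, Col4a1 was at -1.52 and Lama1 at -2.17. Within slides 1 and 2, which hold the other sh-Control RA arrays, Col4a1 was at 1.83 and 0.87 and Lama1 at 1.10 and 0.44.

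**Figure D4:**
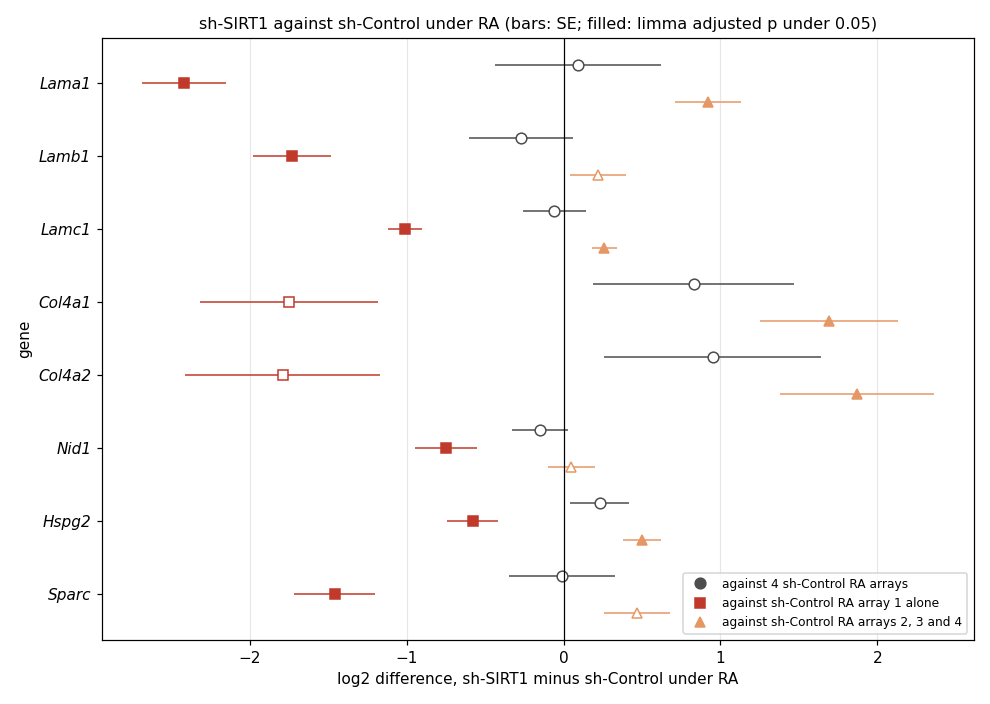
Log2 difference between sh-SIRT1 and sh-Control cells under RA (horizontal axis) for each gene, against all 4 sh-Control RA arrays, against array 1 alone and against arrays 2, 3 and 4. Bars are SE and filled points passed an adjusted p of 0.05; no gene passed with all arrays, while 6 of the 8 were lower against array 1 and 5 higher against the other 3.

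The difference between the RA effects of the 2 lines was called for Nid1 alone, at 1.26 ± 0.29 (adjusted p = 0.0326), where 3.54% of all genes were called (1.71% higher and 1.83% lower). The call was lost when any 1 of 10 of the 16 arrays was left out, with adjusted p between 0.00326 and 0.231 over 26 alternatives. These 10 were sh-Control vehicle arrays 2 and 3, all 3 sh-SIRT1 vehicle arrays, sh-Control RA arrays 3 and 4, and sh-SIRT1 RA arrays 3, 5 and 6, with values between 1.07 and 1.36. It combines the lower vehicle level of Nid1 in sh-SIRT1 cells with near-equal RA levels (2.91 ± 0.48, SD, n = 4, and 2.76 ± 0.07, n = 6). It was 0.65 ± 0.25 with array 1 alone and did not pass (adjusted p = 0.231), and 1.46 ± 0.23 without array 1 (adjusted p = 0.00326). For Col4a1 the difference of RA effects was 0.81 ± 1.04 and for Col4a2 1.25 ± 1.12, and neither passed. With array 1 alone Lama1 (-1.67 ± 0.33) and Lamc1 (-1.19 ± 0.14) were called with a smaller RA effect in sh-SIRT1 cells, where 1.13% of all genes were called. Without array 1 Lama1 (1.67 ± 0.33) and Nid1 were called with a larger one, where 10.1% of all genes were called. Lama1 thus had opposite called values with the 2 choices.

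The mean of the 8 genes, relative to sh-Control vehicle, summarises the arrays. It was 0.16, -0.08 and -0.08 in sh-Control vehicle and -0.39, -0.35 and -0.39 in sh-SIRT1 vehicle. Under RA it was 2.87, 1.19, 0.44 and 0.42 in sh-Control cells and 1.86, 1.86, 1.15, 1.22, 1.20 and 1.30 in sh-SIRT1 cells. By this mean the sh-SIRT1 RA arrays lay between sh-Control array 1 and sh-Control arrays 3 and 4. Single genes kept this order too, except Nid1, whose sh-SIRT1 RA levels (2.66 to 2.84) were below sh-Control arrays 3 and 4 (2.94 and 2.85). The mean leans on the collagen genes, and Col4a1 was the highest of the 8 on all 10 RA arrays. On sh-Control arrays 3 and 4 it was at 2.73 and 2.90, while 5 and 6 genes were below the vehicle arrays. Likeness to this mean therefore leans on the collagen genes too. As a description over the 16 arrays, which share the groups, the genes outside the 8 that were most alike to this mean were S100g (Pearson r = 0.985), Adam15 (0.980), Sox17 (0.978), Aqp8 (0.977), Adamts8 (0.970), Gsn (0.966), Dab2 (0.964) and Srgn (0.963). S100g encodes a calcium-binding protein, Aqp8 a water channel, Gsn an actin-severing protein and Sox17 an endoderm transcription factor. Among the 100 genes most alike to each member, Lama1, Lamc1 and Hspg2 had 4 other members, Lamb1 and Sparc 3, Col4a1 and Col4a2 only each other, and Nid1 none.

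Further genes of the matrix were taken by list, to be read beside the 46.7% (19.7% higher) and 58.2% (23.2% higher) of all genes called for RA in sh-Control and sh-SIRT1. A gene dim in vehicle could be tested through an RA group alone, so counts that rose may partly follow from this filter. Well above background on all vehicle arrays were 12 of 19 other basement membrane components and 13 of 14 collagen modifiers. For receptors it was 13 of 14, and for remodelling genes 12 of 14. Of 19 other basement membrane components tested (of 25 on the list), 5 rose and 1 fell with RA in sh-Control cells and 9 rose and 2 fell in sh-SIRT1 cells, with medians of 0.07 and 0.65. Tinagl1, a secreted matrix protein, rose by 4.25 ± 0.21 (adjusted p = 1.02e-08) and 4.85 ± 0.20 (adjusted p = 7.79e-10). Fras1, an epithelial matrix protein, was too dim on the 6 vehicle arrays to be well above background and rose by at least 2.45-fold and 4.66-fold. Such a bound sets the bright group against the lowest signal well above background, or the probe's own signal if higher, on each array of the dim group. Lama4, another laminin alpha chain, rose by at least 3.97-fold in sh-Control and was at 3.20 ± 0.23 in sh-SIRT1 cells, where only 1 of 3 vehicle arrays measured it well above background. Smoc1, a relative of Sparc, was lower with the Sirt1 hairpin in vehicle (-1.56 ± 0.19) and under RA (-1.50 ± 0.15, adjusted p = 4.43e-05). Under RA 4 components were higher and Smoc1 alone lower with the Sirt1 hairpin.

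Genes that modify and export collagen were a further list. Of 14 tested, 7 rose and 1 fell in sh-Control cells (median 0.50) and 8 rose and none fell in sh-SIRT1 cells (median 0.55). P4ha2, a subunit of the enzyme that hydroxylates collagen prolines, rose by 3.17 ± 0.32 and 2.56 ± 0.30. Serpinh1, the collagen chaperone of the endoplasmic reticulum, rose by 2.39 ± 0.38 (adjusted p = 1.73e-04) and 3.46 ± 0.35 (adjusted p = 1.87e-06). P3h2, a prolyl 3-hydroxylase, rose by at least 2.17-fold and 3.84-fold, and P4ha1 rose by 1.08 ± 0.26 in sh-Control and Plod1, a lysyl hydroxylase, by 1.18 ± 0.19 in sh-SIRT1 cells.

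Of 14 receptors for matrix, 5 rose and 1 fell in each line, with medians of 0.39 and 0.40. In either direction this was a smaller share than the 46.7% and 58.2% of all genes called. The receptors that rose were a larger share than the 19.7% and 23.2% of all genes called higher. Ddr2, a collagen receptor kinase, rose by 4.24 ± 0.54 in sh-Control cells and by at least 10.1-fold in sh-SIRT1 cells. Dag1, the laminin receptor dystroglycan, rose by 1.36 ± 0.11 and 1.18 ± 0.10, and the integrin chains Itga3 by 1.16 ± 0.23 and 1.36 ± 0.21 and Itgav by 0.93 ± 0.26 and 1.19 ± 0.24. Of 14 genes that remodel matrix, 7 rose and 3 fell in sh-Control cells and 8 rose and 1 fell in sh-SIRT1 cells, with medians of 0.78 and 1.75. The protease inhibitor gene Timp2 rose by 3.47 ± 0.25 and 4.18 ± 0.23. Mmp9, a gelatinase that degrades type IV collagen, rose by 2.70 ± 0.25 and 4.23 ± 0.23, and its RA effects differed by 1.53 ± 0.34 (adjusted p = 0.0265, passed in 14 of 25 alternatives).

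Other genes of endoderm were taken by list too. Of 10 other parietal endoderm markers 6 rose in the sh-Control line and 8 in the sh-SIRT1 line, and none fell, with medians of 1.99 and 2.73. The list shares its choice with the members, as genes known to mark this layer. Srgn, a secretory granule proteoglycan, rose by 4.95 ± 1.20 and 6.23 ± 1.11, the parathyroid hormone receptor gene Pth1r by 2.77 ± 0.45 and 3.32 ± 0.42, and the plasminogen activator gene Plat by 2.19 ± 0.35 and 3.67 ± 0.32. Of 9 regulators of primitive endoderm, from which the parietal layer descends, 6 rose in the sh-Control line and 7 in the sh-SIRT1 line, with medians of 3.03 in both. Only 5 of these 9 were well above background on all vehicle arrays, against 8 of the 10 parietal endoderm markers. The others could be tested through an RA group alone, so the counts that rose may partly follow from the filter. Gata6 rose by 4.08 ± 0.52 and 4.53 ± 0.48, Foxa2 by 4.72 ± 0.45 and 5.41 ± 0.41, and the receptor gene Pdgfra by at least 10.3-fold and 9.96-fold. The mean level of the 9 regulators was -4.86 to -3.99 on vehicle arrays. Under RA it was -0.07, -1.62, -2.59 and -2.54 in sh-Control and -2.04 to -1.29 in sh-SIRT1 cells. Array 1 thus stood highest of its group, as it did for the members. By list means the same held for other basement membrane components, collagen modifiers and other parietal endoderm markers. It also held for the visceral endoderm, endothelial and stem cell genes described below. Array 2 was the highest for receptors, remodelling genes, trophoblast and fibroblast genes.

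Genes of other cell types were counted in the same way, with the same limit from the filter. Well above background on all vehicle arrays were 4 of 7 visceral endoderm, 4 of 7 trophoblast and 6 of 10 fibroblast genes tested. Of 7 visceral endoderm genes tested (of 11 on the list) 3 rose in the sh-Control line and 6 in the sh-SIRT1 line. Among them was the retinol carrier gene Rbp4, by 1.97 ± 0.27 and 3.60 ± 0.25. The visceral endoderm genes Ttr, Apoa1, Apoa4 and Ihh did not pass the filter on dim probes. Of 7 trophoblast genes 4 rose and 1 fell in sh-Control cells and 6 rose in sh-SIRT1 cells, with Cdx2 at 5.05 ± 0.51 in the latter. Of 10 fibroblast genes 5 rose in the sh-Control line and 9 in the sh-SIRT1 line, among them Col1a1 by 3.33 ± 0.54 and 4.01 ± 0.50. The mean level of the fibroblast genes was -3.81 to -2.93 on vehicle arrays, -1.10, -0.23, -2.51 and -2.60 in sh-Control RA and -1.54 to -0.37 in sh-SIRT1 RA, so that here array 2, not array 1, was the highest of its group. The defining fibroblast gene Dcn lay below the mark for well above background on the 6 vehicle arrays and on sh-Control RA arrays 3 and 4. Of 6 endothelial genes tested, Sox18 and Robo4 rose and Kdr and Cldn5 fell in sh-Control cells, and Tek and Robo4 rose and Esam fell in sh-SIRT1 cells. They had a mean level between -2.10 and -1.10 on all 16 arrays; Cdh5, Tie1 and Emcn did not pass the filter on dim probes. Of 6 stem cell genes 3 fell and Nanog rose in sh-Control cells, and 4 fell and Nanog rose in sh-SIRT1 cells, with a mean between 4.09 and 4.97 on all arrays. For RA in sh-Control cells the number of genes called, in either direction, was recounted without array 1. Of all genes 47.4% were called then, against 46.7% with all 4 arrays. It was 7 of 19 other basement membrane components (6 with all 4 arrays), 8 of 14 collagen modifiers (8), 7 of 14 receptors (6) and 10 of 14 remodelling genes (10). Of the endoderm lists it was 6 of 10 parietal endoderm markers (6), 7 of 9 primitive endoderm regulators (6) and 3 of 7 visceral endoderm genes (3). It was 5 of 10 for fibroblast (5), 5 of 7 for trophoblast (5), 4 of 6 for endothelial (4) and 4 of 6 for stem cell genes (4). Counts of these lists with array 1 alone would rest on 1 array and are not given. Among the genes named from these lists, Tinagl1 in sh-Control vehicle (2 of 3 arrays), Ddr2 in sh-Control vehicle (2 of 3), Mmp9, Srgn and Foxa2 in sh-SIRT1 vehicle (2 of 3 each) and Cdx2 in sh-SIRT1 vehicle (1 of 3) were well above background on only some arrays of the group. The part of these cell types in the values of the 8 genes was not tested.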

How the data were processed

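RNA was read on 16 Agilent Whole Mouse Genome arrays with 1 colour. The authors read the scans with Feature Extraction 9.5, per the submitters' processing notes; per the file headers, the deposited processed intensity had a spatial and a multiplicative trend corrected, with no other background correction. The deposited series matrix equals it on all 45018 spots of each array. The 75th percentile lay between 685.5 and 1156.2, and 60.3 to 68.6% of spots were well above background; the number of arrays limits the precision. Probe positions are mm7; the exon or untranslated region of single probes was not analysed here.

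Control and outlier spots were left out, log2 intensity was centred on the 75th percentile, and a probe was kept if 1 group or more had it well above background throughout (26375 probes). The brightest probe stood for a gene. Groups were compared with limma 3.58.1 in R 4.3.3 (4 group means, 12 residual degrees of freedom, two-sided, Benjamini-Hochberg over 18282 genes at 0.05), tested on simulated data. The members and lists were chosen with earlier results of these data known. All members and probes are named, up to 4 called genes of each list by size, and the 8 genes most alike; 1 gene of the lists is not reported here. Array deviations of the same number correlated between hairpins at 0.36 to 0.51 in vehicle and 0.43 to 0.54 under RA. The labels do not say that equal numbers are pairs. The main fit leaves the number out, and replicate blocks were alternatives to it. Across treatments, deviations of the same number did not correlate in this way (-0.21 to 0.22). Alternatives were another background correction, normalization, centring, filters, slide and replicate blocks, other probe rules and leaving arrays out.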

Additional observations from a re-analysis of the deposited data

Results flagged for a closer look

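The RA effect on Nid1 differed between the lines by 1.26 ± 0.29 (limma adjusted p = 0.0326), and the difference itself was tested. The call was lost without any 1 of 10 of the 16 arrays. Nid1 was higher than all sh-SIRT1 vehicle arrays on 6 of 6 sh-SIRT1 RA arrays and lower than all sh-Control vehicle arrays on 3 of 4 sh-Control RA arrays. Dixon's test set no single array of the groups of 4 and 6 apart for any of the 8 genes. In groups this small it passes only a gap that fills most of the range, so it cannot decide the question. For Lamc1 it passed over sh-Control RA array 1, at 5.53 against 4.44, 4.2 and 4.15 on the other arrays of that group. Arrays that are high together can also hide each other. The test therefore does not show that array 1 was like its group.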

How the results depend on the processing

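Col4a1 and Col4a2 kept their RA call in both lines, and Lama1 (highest adjusted p 0.0486) and Nid1 (0.0153) theirs in sh-SIRT1 cells, under all 27 alternatives with a test; Nid1 kept its call in vehicle under all 28. The number of the 8 genes called for the difference of RA effects was 0 with normexp, without a filter on dim probes, with slide as a fixed block, and with the replicate block across treatments, which was added after seeing the data. In vehicle it was 2 with the replicate block within treatment and with only the 2 groups compared; the block changed no other call of the 8 genes between hairpins. With sh-Control RA array 1 alone it was 2 for vehicle, 6 under RA, 7 for RA in either line and 2 for the difference. Leaving out 1 array gave 1 to 1 in vehicle, 0 to 5 under RA, 2 to 3 and 4 to 6 for RA in sh-Control and sh-SIRT1, and 0 to 2 for the difference. All genes called were 1575 in vehicle and 647 for the difference, against 270 and 22 with normexp, 967 and 92 with the slide block, 736 to 2225 and 207 to 1846 with 1 array left out, 276 without the filter (difference), 166 with the replicate block across treatments (difference) and 3406 with it within treatment (vehicle). Under RA normexp gave 1123 against 3685, and for RA in sh-Control 4644 against 8534. The series matrix gave identical values. The causes were not tested.

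Values that changed sign were mostly small, except with sh-Control RA array 1 alone, where most were large. With normexp, Col4a1 in vehicle was at -0.05 and Sparc under RA at 0.03. With quantile normalization, Lamc1 was at 0 and Sparc at 0.06 under RA, and Lamc1 at 0.27 for RA in sh-SIRT1. Median centring put Lamb1 at -0.04 for the difference. The slide block put Col4a2 at 0.16 in vehicle, Lama1 at -0.19 under RA, and Lamb1 and Hspg2 at -0.35 and -0.06 for the difference. The replicate block put Sparc at 0.02 under RA, within and across treatments, and Lamc1 at 0 for RA in sh-SIRT1 across them. The mean of probes put Col4a1 at -0.15 in vehicle and Lama1 at -0.37 under RA. With array 1 alone, values under RA were -2.42 for Lama1, -1.75 for Col4a1, -1.79 for Col4a2, -0.58 for Hspg2 and -0.29 for the Y-linked gene Eif2s3y; for RA in sh-Control, 0.27 for Nid1 and 0.66 for Eif2s3y; and for the difference, -1.67 for Lama1, -1.36 for Lamb1, -1.77 for Col4a1, -1.49 for Col4a2, -0.66 for Hspg2 and -0.99 for Sparc. With 1 array left out, values under RA ran from -0.29 to 0.92 for Lama1, -0.50 to 0.22 for Lamb1, -0.20 to 0.26 for Lamc1, -0.34 to 0.05 for Nid1 and -0.29 to 0.47 for Sparc, and Col4a1 in vehicle from -0.08 to 0.20. For RA in sh-Control they ran from -0.16 to 0.55 for Lamb1, -0.16 to 0.30 for Lamc1 and -0.08 to 0.68 for Sparc, and for the difference from -0.13 to 0.58 for Lamb1, -0.38 to 0.08 for Lamc1 and -0.01 to 0.42 for Hspg2.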
